A study of Arabidopsis thaliana with 21 samples.

Results

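The UDP-glycosyltransferase (UGT) family was followed in dark-grown Arabidopsis thaliana seedlings through 45 genes. Members were chosen by name: every gene whose symbol in the array annotation begins with UGT and a digit, apart from UGT78D1 and UGT78D2, with the brightest probe set over all arrays standing for each gene. They were 45 of 13356 named genes, and all 45 had 1 probe set. The groups compared were wild type after 18 h of continuous red light (WT_R18) set against wild type after 18 h more of darkness (WT_D18), wild type after 1 h of red light (WT_R1) against 1 h more of darkness (WT_D1), and dark seedlings of the pif3 mutant (pif3_D0 and pif3_D1) against dark wild type of the same age (WT_D0, WT_D1). Both D0 groups were harvested when 4 days in the dark had passed. All 7 groups were whole seedlings of ecotype Col-0 grown at 21 °C without sucrose after 4 days of cold and 3 h of white light, and each held 3 arrays that the labels call biological replicates. The pif3 allele is not given in the sources used here, and PIF3, the phytochrome-interacting transcription factor whose gene carries the mutation, has no named probe set here, so the mutant arrays rest on their labels.

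UGTs transfer a sugar, most often glucose, from a UDP-sugar to small molecules such as hormones, phenylpropanoids, flavonoids and compounds taken up from outside. The attached sugar usually makes the molecule more soluble and changes its activity, transport or storage, and for hormones such as auxin, cytokinin, abscisic acid and salicylic acid it is one of the routes by which the active form is withdrawn. The number in a UGT name gives its family and the letter its subfamily, both set by protein sequence similarity, so a name does not state a substrate.

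The 45 genes fell into 11 numbered families, of which UGT71 with 9 members, UGT76 with 8 and UGT73 with 7 were the largest here. Their values are probe set intensities in linear units, quantile normalized between arrays, and log2 changes are on the log2(intensity + 16) scale with negative values set to 0. Many of the probe sets were dim. The mean intensity of 12 members lay under 16 units in all 7 groups, 28 members were above 0 on all 21 arrays, and UGT73C1, UGT74F1 and UGT76E1 were at or below 0 on all 21, so that no change in either direction could be seen for these 3. For a dim member this scale understates a change, and the offset largely sets its size. The brightest probe set was that of UGT88A1 and the dimmest that of UGT74F1, which describes the probe sets and not the genes, and signals of different probe sets were not otherwise compared.

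Array quality varied. Deposited array medians ran from 36.2 to 103 units before normalization. On the second principal component, with 12.3% of the variance, WT_R1 replicate 2 (43.5) and WT_D18 replicate 2 (35.7) lay apart from the next array (16.6), and results are given without these arrays where a call ended. The 25S rRNA control signal was 128 to 466 units on the WT_R1 arrays, against 689 to 4776 units on the WT_D1 arrays, and 2650 to 3423 units on the WT_R18 arrays, against 365 to 4305 units on the WT_D18 arrays. The WT_R1 and WT_D1 ranges did not overlap. At 1 h, and in the difference between times, a fit with this signal as a covariate therefore cannot tell it apart from red light. Calls lost or held in such fits are given with that limit. The seedling labels were checked against marker genes. All 8 nuclear photosynthesis markers were higher after 18 h of red light, with a summed level of 34729 to 39484 units in WT_R18, against 10333 to 13106 units in WT_D18. All 4 seed reserve markers were lower, with sums of 150.3 to 305 units in WT_R18, against 2634 to 4003 units in WT_D18. Sums after 1 h were 15456 to 18187 units in WT_R1, against 12929 to 14300 units in WT_D1, for photosynthesis and 1801 to 2861 units in WT_R1, against 2330 to 2989 units in WT_D1, for seed reserves. The 2 measured root markers of 6 listed, EXPA7 and EXPA18, gave sums of 46.1 to 102 units in WT_R18, against 50.2 to 68.1 units in WT_D18, and none of the markers measured was at 0 on all arrays. The part of these shifts in the UGT results was not tested, and in whole seedlings fewer cells of a type and less RNA per cell cannot be told apart.

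After 18 h of red light 13 of the 45 UGT genes changed (limma, adjusted p under 0.05), 8 higher and 5 lower. UGT88A1, UGT76E11, UGT74D1, UGT71B1, UGT71C4, UGT72B3, UGT76C2 and UGT76C1 were higher, and UGT85A4, UGT84A3, UGT73B4, UGT72E1 and UGT85A2 were lower. The 28.9% of members called stands beside 34.4% of all 22746 probe sets tested, and by direction 14.1% of all probe sets were higher and 20.3% lower. Changes of at least 2-fold were found for 3 members, 6.67% of them, against 7.96% of all probe sets. The members' median log2 change was -0.04 and that of all probe sets -0.04, with members running from -1.14 to 1.22.

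Red light for 1 h changed 4 members. UGT74D1, UGT76E2 and UGT72B3 were higher and UGT85A2 was lower, none by 2-fold. The share called was 8.89% of members, against 4.94% of all probe sets, of which 2.78% were higher and 2.16% lower. The members' median log2 change was 0.09, against -0.02 for all probe sets. UGT74D1, UGT72B3 and UGT85A2 were called at both times and in 1 direction, UGT76E2 at 1 h only, and 10 members at 18 h only. Both red light comparisons have their own dark arrays and share no sample. With the arrays left unscaled no member was called at 1 h, and 4 were called at 18 h, UGT71B1, UGT76E11 and UGT88A1 higher and UGT85A4 lower.

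**Figure D1:**
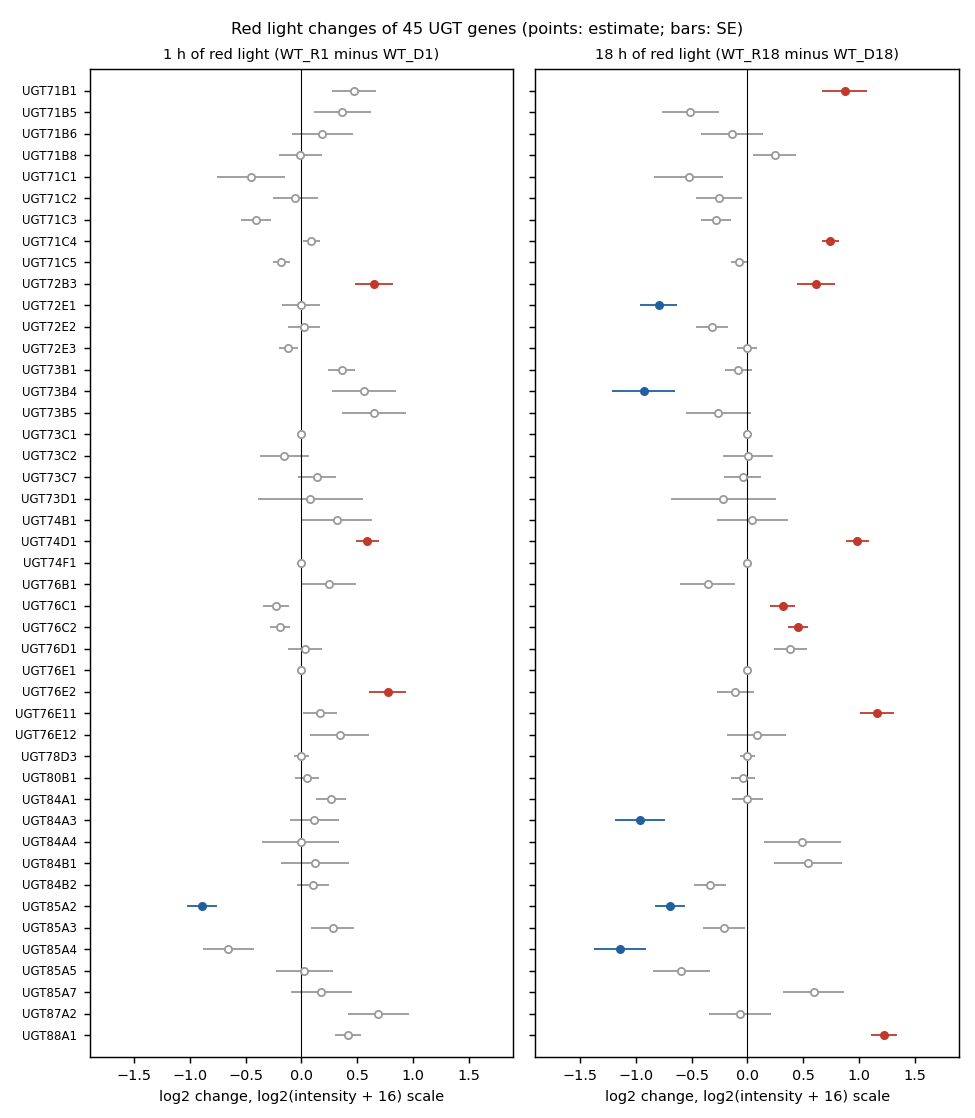
Log2 changes with standard errors for the 45 UGT genes after 1 h (left) and 18 h (right) of red light against darkness; filled red points are called higher, filled blue points lower and open grey points not called. At 1 h 4 genes are called and at 18 h 13, with UGT88A1 at 1.22 the highest and UGT85A4 at -1.14 the lowest.

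Among members that act on hormones, the auxin enzyme UGT74D1 responded at both times. UGT74D1 glucosylates auxins and the auxin catabolite oxindole-3-acetic acid. It lay at 534, 519.9 and 502 units on the 3 WT_R1 arrays, against 338, 380.4 and 303 units on the WT_D1 arrays. After 18 h it lay at 707, 678 and 755 units in WT_R18, against 347, 345 and 365 units in WT_D18. At each time every red light array lay above every dark array, with log2 changes of 0.59 (SE 0.11, adjusted p = 0.0023) at 1 h and 0.98 (SE 0.11, adjusted p = 2.4e-06) at 18 h. Adding the 25S rRNA covariate gave 0.39 at 1 h (adjusted p = 0.16), where that signal and red light cannot be told apart. Of the other auxin enzymes of the list, UGT84B1, which forms the glucose ester of indole-3-acetic acid, was near background at 11.2 ± 5.83 units in WT_R18 and 0.829 ± 6.86 units in WT_D18 (SD, n = 3 each), with a log2 value of 0.54 (adjusted p = 0.2). UGT84B2 had -0.34 (adjusted p = 0.089), so 1 of the 3 measured auxin members of 6 listed was called higher at each time and none lower. Over all probe sets 2.78% were higher at 1 h and 14.1% at 18 h, and the list was not tested against these shares.

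The cytokinin enzymes UGT76C1 and UGT76C2, which attach glucose to nitrogen atoms of the cytokinin ring, were both higher at 18 h. UGT76C2 lay at 357, 279 and 391 units on the WT_R18 arrays, against 250.3, 231 and 249 units on the WT_D18 arrays. The groups did not overlap, and the log2 change was 0.45 (SE 0.09, adjusted p = 0.0012). It missed the threshold in a fit of only the WT_R18 and WT_D18 arrays (adjusted p = 0.058). The WT_D18 mean of UGT76C2, 244 units, was the lowest of the 7 groups, and WT_D18 against WT_D0 gave -0.25 (adjusted p = 0.28). The WT_R18 arrays overlapped those of WT_D0 (269 to 305 units) and WT_D1 (311 to 322 units). UGT76C1 lay at 319.8, 337 and 225 units in WT_R18, against 231, 238 and 221 units in WT_D18. Replicate 3 of WT_R18 fell within the dark range, and the change of 0.32 (SE 0.11, adjusted p = 0.043) lost its call with any 1 of the 6 arrays except WT_R18 replicate 3 left out (adjusted p up to 0.2), with WT_R1 replicate 2 and WT_D18 replicate 2 left out together (adjusted p = 0.082), in a fit of only the WT_R18 and WT_D18 arrays (adjusted p = 0.21) and with the 25S rRNA covariate (adjusted p = 0.062). At 1 h UGT76C1 had -0.23 (adjusted p = 0.37) and UGT76C2 -0.19 (adjusted p = 0.35). UGT73C1, a further member tied to cytokinin, had no signal above 0, so 2 of 3 measured cytokinin members of 5 listed were called higher at 18 h. Over all probe sets 14.1% were higher at that time, and the list was not tested against this share.

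No member of the abscisic acid or salicylate lists was called after red light. UGT71C5, which forms the glucose ester of abscisic acid, averaged 306 ± 10.2 units in WT_R18 and 323 ± 25.6 units in WT_D18 (SD, n = 3 each). Its log2 values were -0.18 (adjusted p = 0.26) at 1 h and -0.07 (adjusted p = 0.53) at 18 h. UGT71B6, which also acts on abscisic acid, and UGT71B8 were near background in all groups, with group means no higher than 6.07 units. For salicylate, UGT76B1, which glucosylates salicylic acid and other defence compounds, had -0.36 (adjusted p = 0.31) at 18 h, and UGT71C3, a methyl salicylate enzyme, had -0.28 (adjusted p = 0.12). At 1 h UGT71C3 had -0.41 (adjusted p = 0.11), at 30.8 to 53.9 units in WT_R1, against 59.0 to 68.2 units in WT_D1. It was called lower at 1 h without WT_R1 replicate 3 (adjusted p = 0.045). At 18 h it was called lower without WT_R1 replicate 2 and WT_D18 replicate 2 together (adjusted p = 0.013). UGT74F1, a salicylic acid enzyme, had no signal above 0. Brassinosteroid enzymes had no measured member of the 2 listed.

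**Figure D2:**
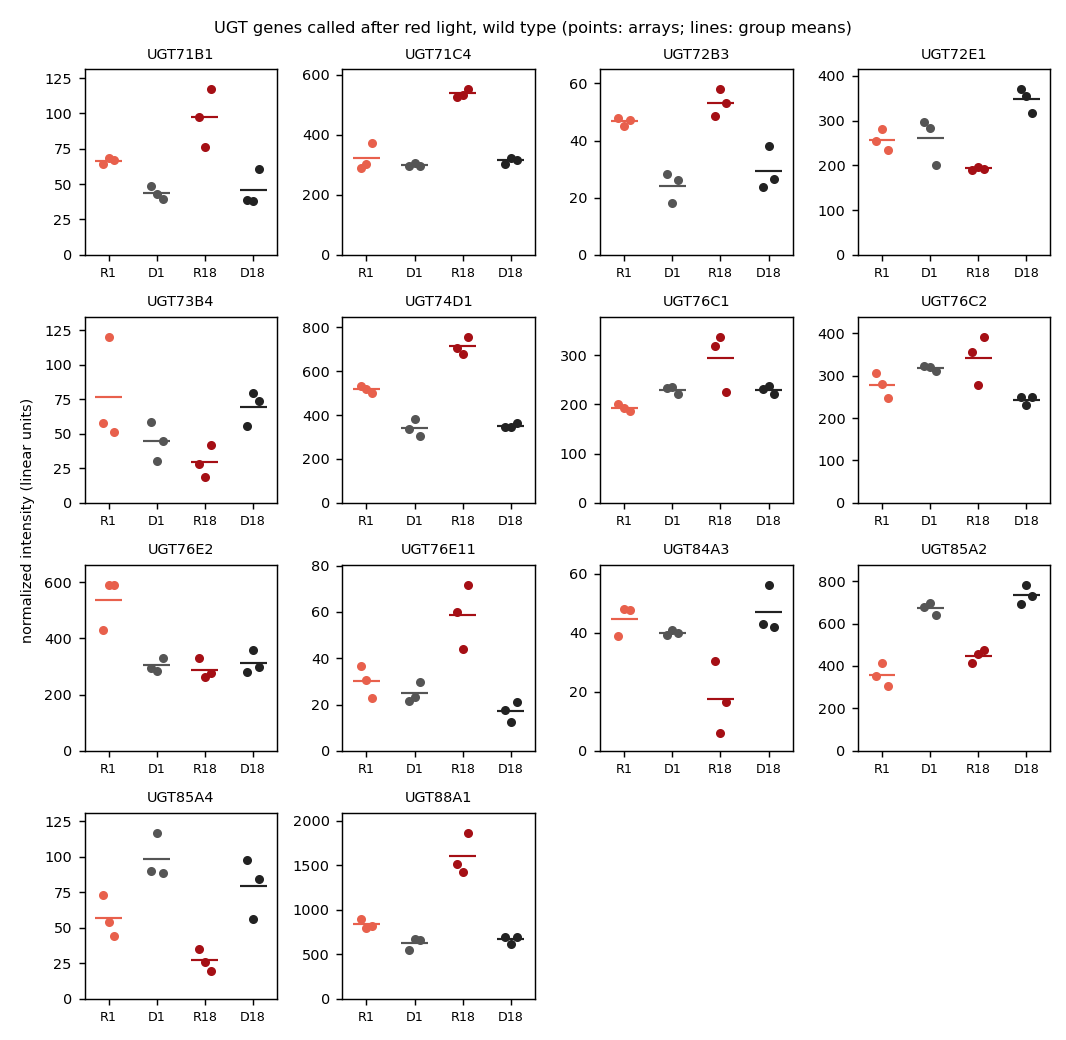
Normalized intensity (linear units, axes from 0) of the 14 UGT genes called after red light, with a point per array and a line at the group mean, for wild type after 1 h of red light (R1), 1 h more of darkness (D1), 18 h of red light (R18) and 18 h more of darkness (D18). UGT74D1, UGT88A1 and UGT71C4 show WT_R18 arrays well above WT_D18, and UGT85A2 lies lower in both red light groups.

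Members of the phenylpropanoid list went lower where they were called. UGT72E1, which can glucosylate the lignin precursors coniferyl and sinapyl aldehyde, lay at 190.2, 196 and 193 units on the WT_R18 arrays, against 370.0, 356 and 317 units on the WT_D18 arrays. The WT_R18 arrays were close together and all below the dark arrays, with a log2 change of -0.80 (SE 0.17, adjusted p = 0.0015). Its relatives UGT72E2 and UGT72E3, which make the glucosides of the alcohol forms, were not called, UGT72E2 with -0.32 (adjusted p = 0.11) and UGT72E3 near background. With the 25S rRNA covariate UGT72E2 was called lower (-0.41, adjusted p = 0.027). UGT84A3, which forms glucose esters of hydroxycinnamic acids such as sinapate, lay at 30.4, 5.89 and 16.7 units in WT_R18, against 42.9, 56.2 and 41.9 units in WT_D18. These groups did not overlap either, and the change was -0.96 (SE 0.22, adjusted p = 0.003). It ran from -0.45 to -1.61 over the settings tried, and a fit of only these 6 arrays gave an adjusted p of 0.07. UGT84A4 had 0.49 (adjusted p = 0.31) and UGT84A1 was above 0 on 1 array of 21. UGT72E3 and UGT84A1 were below 0 on all WT_R18 and WT_D18 arrays, so no change could be seen for them at 18 h. In all, 2 of 7 measured entries of the 8 on the phenylpropanoid list were called lower at 18 h and none higher. The shares over all probe sets were 20.3% lower and 14.1% higher. No entry of the list was called at 1 h, where UGT72E1 had 0.00 (adjusted p = 1) and UGT84A3 0.11 (adjusted p = 0.93). Of the measured entries, GT72B1 is named otherwise and is not among the UGT genes followed here. GT72B1 was not called at 18 h, but lay at 388 to 679 units in WT_R18, against 339 to 386 units in WT_D18, without overlap. The list's median log2 change at 18 h was 0, against -0.04 for all probe sets.

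UGT76E11, which glucosylates flavonols such as quercetin, was among the largest increases at 18 h. It lay at 59.8, 44.1 and 71.6 units on the WT_R18 arrays, against 17.7, 12.4 and 21.3 units on the WT_D18 arrays, a dim but clearly separated signal, with a log2 change of 1.16 (SE 0.15, adjusted p = 2.2e-05). On the offsets tried the change ran from 0.59 with an offset of 64 to 1.72 with an offset of 1. At 1 h it had 0.17 (adjusted p = 0.73). Its close relative UGT76E12 was near background, at 5.47 ± 3.93 units in WT_R18 and 4.18 ± 2.94 units in WT_D18 (SD, n = 3 each). UGT76E2 moved at 1 h only. It lay at 428, 589 and 589 units in WT_R1, against 296, 285 and 332 units in WT_D1, and at 329, 261 and 275 units in WT_R18, against 280.4, 358 and 299 units in WT_D18. The groups were separate at 1 h and overlapped at 18 h, with log2 values of 0.77 (SE 0.17, adjusted p = 0.01) and -0.11 (adjusted p = 0.7). The 1 h call was lost without WT_R1 replicate 2 or without WT_R1 replicate 3 (adjusted p up to 0.055), without WT_R1 replicate 2 and WT_D18 replicate 2 together (adjusted p = 0.057), in a fit of only the WT_R1 and WT_D1 arrays (adjusted p = 0.084) and with the 25S rRNA covariate (adjusted p = 0.089). UGT78D3, a flavonol arabinosyltransferase, was above 0 on 1 array of 21.

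UGT88A1 showed the largest increase among members at 18 h. It lay at 1515, 1422 and 1859.8 units on the WT_R18 arrays, against 697, 620.2 and 698 units on the WT_D18 arrays. Even the lowest red light array lay far above the highest dark array, and the log2 change was 1.22 (SE 0.12, adjusted p = 6.6e-07). After 1 h it lay at 892, 798 and 812 units in WT_R1, against 543, 672 and 655 units in WT_D1, which do not overlap, with a log2 value of 0.42 (adjusted p = 0.053) that missed the threshold but passed it among probe sets of at least 32 units (adjusted p = 0.034). UGT71C4 was steady at 1 h and higher at 18 h, at 527, 533 and 551 units in WT_R18, against 302, 324 and 317 units in WT_D18. That change was 0.74 (SE 0.07, adjusted p = 1.1e-06), and at 1 h UGT71C4 had 0.09 (adjusted p = 0.68). UGT71B1 lay at 97.8, 76.6 and 117 units in WT_R18, against 38.9, 38.2 and 60.8 units in WT_D18, with no overlap and a log2 change of 0.87 (SE 0.20, adjusted p = 0.0028). Also at 1 h its arrays were separate, at 64.5, 68.3 and 67 units in WT_R1, against 48.5, 43.3 and 39.3 units in WT_D1, but the log2 value of 0.47 (adjusted p = 0.27) was called only in a fit of these 6 arrays alone (adjusted p = 0.036).

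UGT72B3, a relative of the xenobiotic-conjugating enzyme UGT72B1, was higher at both times from a dim dark signal. It lay at 47.8, 45.1 and 47.2 units in WT_R1, against 28.5, 18.2 and 26.1 units in WT_D1, and at 48.8, 58 and 53.1 units in WT_R18, against 23.7, 38.2 and 26.5 units in WT_D18. Neither pair of groups overlapped. The log2 changes were 0.65 (SE 0.17, adjusted p = 0.037) and 0.62 (SE 0.17, adjusted p = 0.0097). The 1 h call was lost with any 1 of the 6 arrays left out (adjusted p up to 0.16), without WT_R1 replicate 2 and WT_D18 replicate 2 together (adjusted p = 0.074), in a fit of only the WT_R1 and WT_D1 arrays (adjusted p = 0.06) and with the 25S rRNA covariate (adjusted p = 0.13), while the 18 h call held in all 6 such fits (adjusted p up to 0.048).

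In the UGT85 family the called changes were downward. UGT85A2 lay at 354, 413 and 307 units on the WT_R1 arrays, against 679, 698 and 642 units on the WT_D1 arrays. At 18 h it lay at 413, 458 and 476 units in WT_R18, against 694, 781 and 728 units in WT_D18. The red light arrays were below the dark ones at both times, with log2 changes of -0.89 (SE 0.14, adjusted p = 0.00054) and -0.69 (SE 0.14, adjusted p = 0.00084), and its 1 h call held with the 25S rRNA covariate (adjusted p = 0.045). UGT85A4 had the largest decrease among members at 18 h, at 35.3, 25.9 and 19.9 units in WT_R18, against 97.7, 56.4 and 84.8 units in WT_D18. The groups did not overlap, and the change was -1.14 (SE 0.23, adjusted p = 0.001). At 1 h UGT85A4 lay at 73.3, 53.9 and 44.3 units in WT_R1, against 90.4, 117 and 88.6 units in WT_D1, with -0.66 (adjusted p = 0.14). Of the family's 5 members, 2 were lower at 18 h and none higher, beside 20.3% lower and 14.1% higher of all probe sets. The family's median log2 change of -0.59 was the value of UGT85A5, which was not called. UGT85A5 averaged 97.1 units in WT_R18 and 153 units in WT_D18, but 86.7 units in WT_D0 and 86.9 units in WT_D1. UGT85A7, also not called, went the other way with 0.59.

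In the UGT73 family 1 of 7 members was called at 18 h, where 34.4% of all probe sets were called. UGT73B4, whose product can conjugate derivatives of the explosive TNT, lay at 28.2, 19 and 41.6 units in WT_R18, against 56, 79.9 and 73.5 units in WT_D18. The groups did not overlap, and the log2 change was -0.93 (SE 0.28, adjusted p = 0.018). Its call was lost without WT_D18 replicate 2, WT_D18 replicate 3 or WT_R18 replicate 2 (adjusted p up to 0.08). UGT73B1 had 0.36 (adjusted p = 0.12) at 1 h and -0.08 (adjusted p = 0.68) at 18 h, and UGT73B5 0.65 (adjusted p = 0.3) and -0.26 (adjusted p = 0.56).

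The other members that were not called had clear signals in several cases. UGT74B1, the thiohydroximate S-glucosyltransferase of glucosinolate synthesis, had 0.05 (adjusted p = 0.98) at 18 h, and UGT80B1, a sterol glucosyltransferase, -0.04 (adjusted p = 0.86). UGT87A2, known for an effect on flowering time, had 0.69 (adjusted p = 0.23) at 1 h and -0.07 (adjusted p = 0.93) at 18 h. UGT85A5 had -0.59 (adjusted p = 0.092) at 18 h. It was called among probe sets of at least 32 units (adjusted p = 0.049) and in a fit of only the WT_R18 and WT_D18 arrays (adjusted p = 0.047). At 18 h UGT76D1 had 0.39 (adjusted p = 0.061) and UGT71C2 -0.26 (adjusted p = 0.39). UGT76D1 was called with 75th percentile scaling (adjusted p = 0.026), with the 25S rRNA covariate (adjusted p = 0.024) and without WT_R18 replicate 3 (adjusted p = 0.034). UGT71B5, UGT73C2, UGT73C7 and UGT73D1 were dim, with log2 values at 18 h of -0.51 for UGT71B5, 0.01 for UGT73C2, -0.04 for UGT73C7 and -0.22 for UGT73D1. In all, 31 members were called at neither time, with log2 values at 18 h from -0.59 for UGT85A5 to 0.59 for UGT85A7, which was dim, and at 1 h from -0.45 for UGT71C1 to 0.69 for UGT87A2.

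The change at 18 h and the change at 1 h differed for 9 members by the test of the difference itself, 20% of members, against 18.8% of all probe sets (9.29% in the positive and 9.47% in the negative direction). The 18 h change was the higher for UGT76E11, with a log2 difference of 1.00 and an adjusted p of 0.0041, and for UGT88A1, with 0.81 (adjusted p = 0.0025). The same held for UGT71C4 at 0.66 (adjusted p = 0.00039), UGT76C2 at 0.64 (adjusted p = 0.0024) and UGT76C1 at 0.55 (adjusted p = 0.027). It was the lower for UGT73B4 at -1.49 (adjusted p = 0.016), UGT84A3 at -1.08 (adjusted p = 0.025), UGT76E2 at -0.88 (adjusted p = 0.015) and UGT72E1 at -0.79 (adjusted p = 0.029). At 1 h UGT73B4 was not called (0.56, adjusted p = 0.39) and lay at 58.1, 120.1 and 51.1 units in WT_R1, against 58.6, 30.4 and 44.9 units in WT_D1. For UGT74D1 the difference was 0.40 (adjusted p = 0.08), for UGT85A2 0.20 (adjusted p = 0.55) and for UGT72B3 -0.03 (adjusted p = 0.99). Without WT_R1 replicate 2 and WT_D18 replicate 2, the differences of UGT72E1, UGT73B4, UGT76C1, UGT76E2 and UGT84A3 lost their call (adjusted p of 0.072 to 0.12). With the 25S rRNA covariate UGT72E1, UGT76C1, UGT76E2 and UGT84A3 lost it (adjusted p of 0.076 to 0.29), while UGT73B5 and UGT74D1 gained one (adjusted p = 0.046 and 0.031).

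Many UGT genes lie beside one another in the genome, and neighbours were not always called together. In the order of genes of assembly TAIR10.1, 24 members formed 10 blocks in which each member followed the last with at most 1 other gene between them. At 18 h 5 of the 10 blocks held a called member, in 4 of them a single one. The 34.4% of all probe sets called at that time is a share of single probe sets, and a count of blocks cannot be set against it. Whether calls fell together in blocks more or less often than that share would give was not tested. Opposite directions could be seen only in the 1 block with more than 1 call, and its calls went in the same direction. UGT76C2 and UGT76C1 were the neighbours that were both called. In the block of UGT71C5, UGT71C4 and UGT71C3 the middle gene was called, with log2 values of -0.07, 0.74 and -0.28. UGT85A2 at -0.69 shared a block with UGT85A7 at 0.59, UGT85A5 at -0.59 and UGT85A3 at -0.21, none of these called. UGT84A3 at -0.96 lay between UGT84A1 and UGT84A4, and UGT73B4 at -0.93 beside UGT73B5 at -0.26. Differences between neighbours were not tested, and the share of a probe set's signal that came from a close copy, such as UGT76E11 and UGT76E12 or UGT76C1 and UGT76C2, was not tested.

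**Figure D3:**
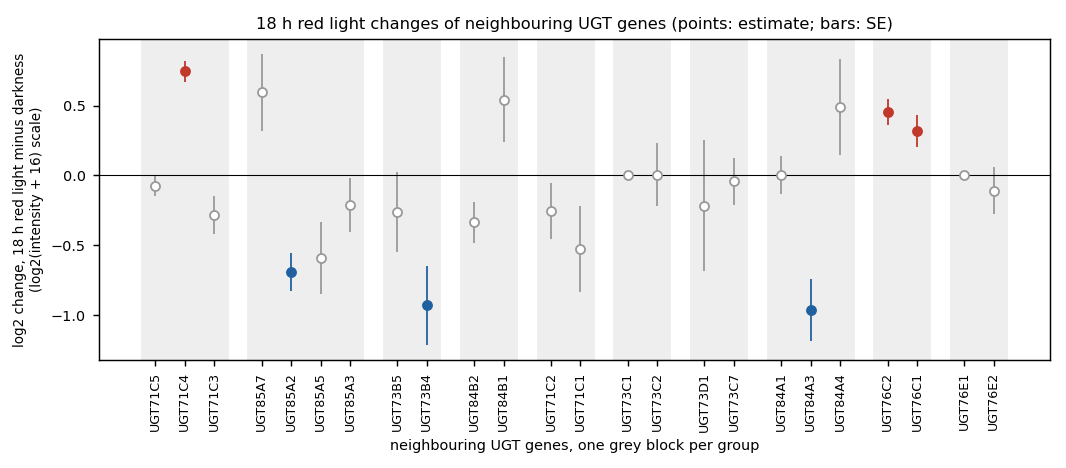
Log2 change after 18 h of red light against darkness, with standard errors, for 24 UGT genes in 10 blocks of neighbours (grey); filled red points are called higher, filled blue lower and open grey not called. UGT71C4 at 0.74 stands above UGT71C5 and UGT71C3 beside it, and UGT76C2 and UGT76C1 are both higher.

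After 18 h more of darkness no member was called (WT_D18 against WT_D0, limma), against 0.044% of all probe sets, and 7 members (of 45) had an unadjusted p under 0.05, as did 13.3% of all probe sets. The smallest p belonged to UGT73B1, at 298, 334 and 325 units in WT_D18, against 235, 213 and 225 units in WT_D0. These groups did not overlap, and the log2 value was 0.48 (adjusted p = 0.16). UGT71C1 and UGT85A5, named after their values were seen, varied widely among the WT_D0 arrays. UGT71C1 lay at 25.1, 16 and 22.7 units in WT_D18, against 29.1, 57.1 and 98.9 units in WT_D0, and UGT85A5 at 142, 144 and 174 units in WT_D18, against 139, 62.7 and 58.2 units in WT_D0. Replicate 1 was the WT_D0 array nearest the WT_D18 values for both genes. Without it both were called, UGT71C1 at -1.30 (adjusted p = 0.032) and UGT85A5 at 1.14 (adjusted p = 0.018).

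In dark pif3 seedlings 1 member was higher than in wild type and none lower when D0 and D1 were averaged, 2.22% of members against 1.78% of all probe sets. This was UGT76C2, the cytokinin N-glucosyltransferase. It lay at 390.4, 393 and 389 units on the pif3_D0 arrays, against 269, 302 and 305 units on the WT_D0 arrays, and at 372, 365 and 367 units on the pif3_D1 arrays, against 322, 321 and 311 units on the WT_D1 arrays. All 6 mutant arrays lay above all 6 wild-type arrays, and the log2 change was 0.30 (SE 0.07, adjusted p = 0.032). The call was lost in 8 of 12 fits that left out 1 array (adjusted p up to 0.074), namely WT_D0 replicate 1, any of the WT_D1 arrays, or replicate 1 or 3 of pif3_D0 or of pif3_D1, and with the 25S rRNA covariate (adjusted p = 0.072). That control signal was 4289 to 5410 units on the 6 pif3 arrays, against 624 to 4927 units on the WT_D0 and WT_D1 arrays.

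The next smallest p-values in pif3 belonged to UGT74D1 with 0.30 (adjusted p = 0.056), UGT88A1 with 0.33 (adjusted p = 0.058) and UGT73B1 with 0.32 (adjusted p = 0.074), which missed the threshold. These were close to it: among probe sets of at least 32 units UGT74D1 (adjusted p = 0.041) and UGT88A1 (adjusted p = 0.039) passed, both also passed with 75th percentile scaling (adjusted p = 0.047 and 0.034), and UGT74D1 passed with the 25S rRNA covariate (adjusted p = 0.033). UGT74D1 lay at 401, 373 and 444 units in pif3_D0, against 372, 260.1 and 323 units in WT_D0, and at 402, 378 and 439 units in pif3_D1, against 338, 380.4 and 303 units in WT_D1. UGT88A1 lay at 802, 786 and 939 units in pif3_D0, against 554, 635 and 736 units in WT_D0, and at 743, 711 and 789.8 units in pif3_D1, against 543, 672 and 655 units in WT_D1. The pif3 and wild-type values of UGT88A1 did not overlap at either time, while those of UGT74D1 overlapped at D1 and were separate at D0. For these 3 members and UGT76C2 the red light values at 18 h were 0.98 for UGT74D1, 1.22 for UGT88A1, -0.08 for UGT73B1 and 0.45 for UGT76C2, from arrays that the pif3 comparison does not use. At 1 h they were 0.59 for UGT74D1, 0.42 for UGT88A1, 0.36 for UGT73B1 and -0.19 for UGT76C2. These members were picked by their pif3 p-values, and whether pif3 and red light changes go together was not tested. At D0 alone and at D1 alone no member was called, against 0.295% and 0.0396% of all probe sets, with 6 members at D0 and 3 at D1 at an unadjusted p under 0.05, beside 12% and 7.51% of all probe sets. The pif3 change at D1 and that at D0 differed for no member and for 0% of all probe sets, and no member had an unadjusted p under 0.05. Of the green seedling markers 3 of 8 were higher in pif3, with sums of 15718 to 17693 units over the 6 pif3 arrays, against 11229 to 14563 units over the 6 wild-type arrays. Seed reserve sums were 1057 to 1759 units in pif3, against 1632 to 2989 units in wild type, with 1 of 4 markers called lower, and the part of these markers in the UGT values was not tested. The pif3 comparison shares its WT_D1 arrays with the comparison of 1 h of red light and its WT_D0 arrays with that of longer darkness.

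**Figure D4:**
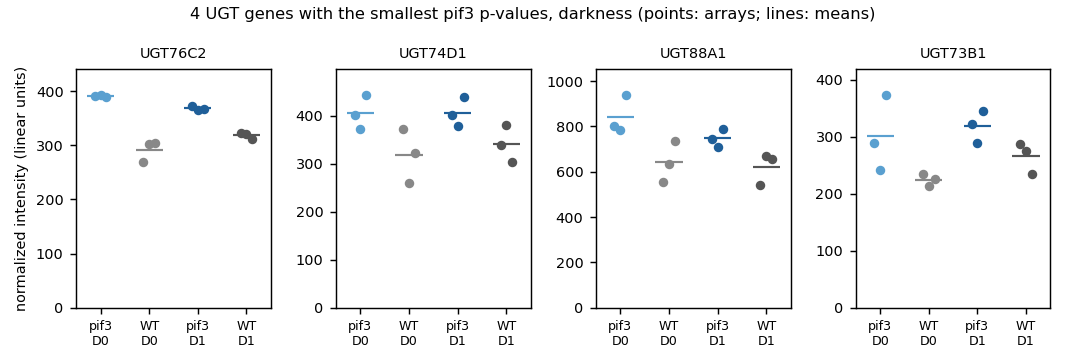
Normalized intensity (linear units, axes from 0) in dark pif3 and wild-type seedlings at D0 and D1 for the 4 UGT genes with the smallest pif3 p-values, with a point per array and a line at the group mean. UGT76C2, the called gene, has its 6 pif3 arrays between 365 and 393 units, above all 6 wild-type arrays.

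In some members 1 array of a group lay far from the other arrays of that group. Of the 25 members with a mean of at least 32 units, 6 (24%) lay farthest above their own group mean on WT_R1 replicate 2, against 6.74% of the 14242 probe sets that bright. These 6 were UGT74B1, UGT87A2, UGT73B4, UGT76B1, UGT73B5 and UGT72E2, named after their values were seen. UGT74B1 lay at 192, 540.4 and 192 units in WT_R1, against 205, 224 and 219.7 units in WT_D1, so that replicate 2 was far above its own group. It was also uneven at 18 h, at 206, 198 and 373 units in WT_R18, against 195, 318 and 222 units in WT_D18. UGT87A2 lay at 290.0, 655 and 292 units in WT_R1, against 254, 245 and 198 units in WT_D1, and at 264, 242 and 474 units in WT_R18, against 281, 402 and 312 units in WT_D18. For both genes the high arrays were WT_R1 replicate 2, WT_R18 replicate 3 and WT_D18 replicate 2, of which WT_R1 replicate 2 and WT_D18 replicate 2 were the arrays highest on the second principal component.

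**Figure D5:**
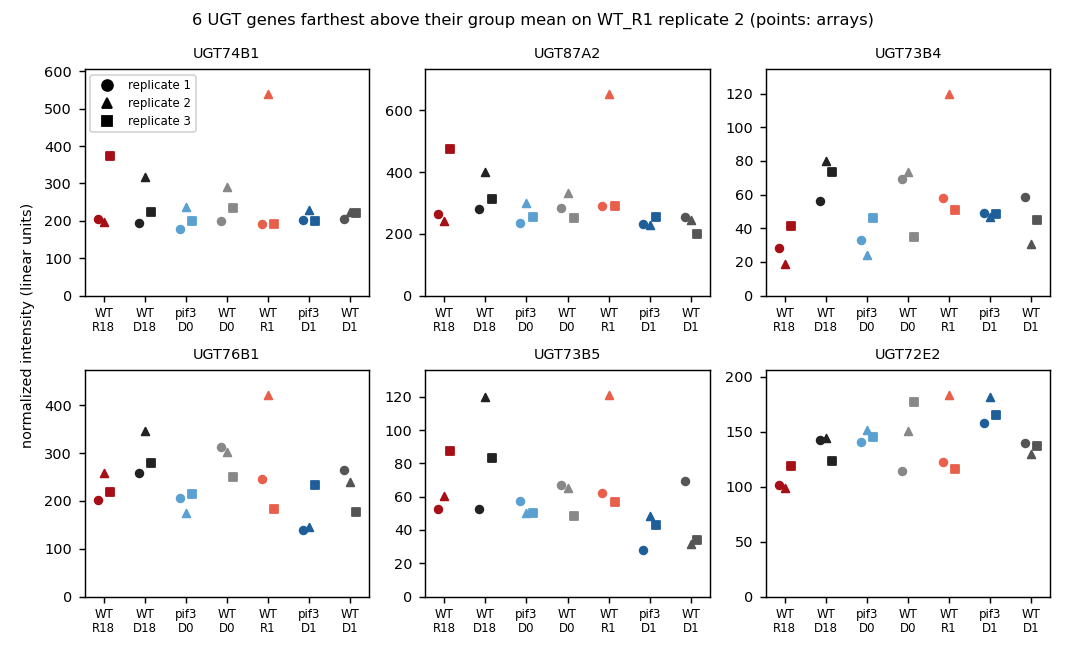
Normalized intensity (linear units, axes from 0) on all 21 arrays for the 6 UGT genes that lay farthest above their group mean on WT_R1 replicate 2; symbols mark the replicate number. UGT74B1 reaches 540.4 units and UGT87A2 655 units on that array, against 192 and 292 units or less on the other WT_R1 arrays.

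Genes of the linked pathways were few among the named probe sets. Of 20 beta-glucosidase genes (symbol BGLU), whose enzyme family removes glucose from glucosides, 3 were called higher at 18 h and none lower. Over the whole array the shares at that time were 14.1% for increases and 20.3% for decreases. Whether the 20 genes differed from these shares was not tested. None of the 20 was called at 1 h or in pif3. Against WT_D18, BGLU40 was higher by 1.25 (adjusted p = 2.4e-05) and BGLU25 by 0.65 (adjusted p = 0.032), and the third, BGLU31, lay under 16 units in both groups. BGLU25 averaged 287 units in WT_R18, 176 units in WT_D18 and 338 units in WT_D0. The median over the 20 genes was 0.05. In the UDP-sugar supply list 1 of 37 entries was measured, USP, a UDP-sugar pyrophosphorylase, with 0.21 (adjusted p = 0.18) at 18 h. The phenylpropanoid synthesis list had 2 of 20 measured and none called. The flavonoid synthesis list had 4 of 16 measured, with 3 called higher at 18 h, of which 2 were UGT78D1 and UGT78D2, left out of the 45 genes here. Among glycosyltransferases named otherwise in the annotation, SGT (UGT80A2), a sterol glucosyltransferase, had -0.42 (adjusted p = 0.00025) at 18 h. UF3GT (UGT79B1), an anthocyanin xylosyltransferase, was called higher at 18 h, but lay at 9.76 to 14.2 units in WT_R18 and below 0 on all WT_D18 arrays, so no size is given.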

How the data were processed

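Total RNA (5 µg) of each sample was hybridised as biotinylated cRNA, per the labels' protocols. The deposited values are probe set intensities, read here as linear and with no common scale, and values below 0 made up 9.78% to 12.2% of each array. How the authors summarised and scaled the intensities is not given in the sources used here. Here the intensities were quantile normalized, values below 0 were set to 0, 16 was added and log2 was taken. A model with a mean for each of the 7 groups was fitted to all 21 arrays (R 4.3.3, limma 3.58.1), after a check on simulated data. That check planted 2-fold changes in 200 of the brighter probe sets per comparison, and 79% to 96% of them were recovered. It did not cover dim probe sets or smaller changes. Tests were two-sided, with Benjamini-Hochberg adjustment over 22746 non-control probe sets and a threshold of 0.05. The number of arrays, 3 a group, limits the precision, and p-values measure the spread between samples labelled biological replicates.

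Of the probe sets in the table, 13513 carried 1 gene name, 503 several and 8730 none. The reference gene table holds 56 UGT symbols by the rule, of which 11 had no probe set of their own. The members and gene lists were chosen with earlier results of these data known. Every called member was named, with its arrays, which goes beyond the rule written for per-array values (changes of at least 2-fold, or a call in pif3). Other scalings, offsets, filters, a replicate block, fits of only the groups compared, the 25S rRNA signal as a covariate and leaving out arrays were tried.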

Additional observations from a re-analysis of the deposited data

Results flagged for a closer look

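For 9 UGT genes the response to red light differed between 18 h and 1 h, by the test of the difference itself (limma, log2 scale, Benjamini-Hochberg over all probe sets). The 18 h change exceeded the 1 h change for UGT76E11 by 1.00 (adjusted p = 0.0041), for UGT88A1 by 0.81 (adjusted p = 0.0025), for UGT71C4 by 0.66 (adjusted p = 0.00039), for UGT76C2 by 0.64 (adjusted p = 0.0024) and for UGT76C1 by 0.55 (adjusted p = 0.027). The difference was -1.49 for UGT73B4 (adjusted p = 0.016), -1.08 for UGT84A3 (adjusted p = 0.025), -0.88 for UGT76E2 (adjusted p = 0.015) and -0.79 for UGT72E1 (adjusted p = 0.029).

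With 1 array left out, the difference of UGT72E1 lost its call without WT_D1 replicate 3, WT_D18 replicate 1 or 2, WT_R1 replicate 2, or WT_R18 replicate 1 or 3 (adjusted p up to 0.079). That of UGT76C1 was lost without WT_D1 replicate 1 or 2, WT_D18 replicate 3, WT_R1 replicate 2 or 3, or WT_R18 replicate 1 or 2 (adjusted p up to 0.07), and that of UGT84A3 without WT_D18 replicate 2 or WT_R1 replicate 2 or 3 (adjusted p up to 0.065). The other 6 genes held their call in all 12 such fits, but with the 25S rRNA covariate the difference of UGT76E2 lost its call (adjusted p = 0.076), as did those of UGT72E1 (adjusted p = 0.29), UGT76C1 (adjusted p = 0.14) and UGT84A3 (adjusted p = 0.14).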

How the results depend on the processing

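No called UGT change reversed its direction in any setting tried. With unscaled arrays 0 members were called at 1 h, 4 at 18 h, 0 in the difference between times and 0 in pif3, while 165, 1997, 639 and 4 probe sets were called in all, against 1124, 7828, 4265 and 406 on normalized values; of these calls 80%, 75.8%, 87.5% and 25% were higher, against 56.3%, 41%, 49.5% and 63.3% on normalized values. In pif3 the members called were 3 with 75th percentile scaling, 2 with an offset of 64 and 4 among probe sets of at least 32 units. The 25S rRNA covariate left 1 member at 1 h, and 619, 2165 and 242 probe sets in all at 1 h, in the difference between times and in pif3. At 1 h and in the difference it cannot be told apart from red light. Without WT_R1 replicate 2 and WT_D18 replicate 2, a setting chosen after seeing the data, 2 members were called at 1 h and 5 in the difference. Fits of only the groups compared called 3 members at 1 h, 11 at 18 h, 10 in the difference, 0 in longer darkness and 1 in pif3. With 1 array left out, members called ran from 2 to 3 at 1 h (2 without WT_R1 replicate 2), 11 to 15 at 18 h, 6 to 9 in the difference, 0 to 2 in longer darkness (2 without WT_D0 replicate 1), 0 to 3 in pif3 and 0 to 0 in the change of pif3 between D1 and D0. For pif3 the count was 0 without WT_D1 replicate 1 or 3, pif3_D0 replicate 1 or 3, or pif3_D1 replicate 1 or 3, 2 without WT_D0 replicate 3 and 3 without pif3_D0 replicate 2. The cause of these shifts was not tested. The alternative of the dimmest probe set changed nothing, since each member had 1.

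The replicate numbers were not used to pair the arrays in the main fit. In the pairs of groups checked, deviations of same-numbered arrays correlated at -0.10 to 0.26, with 3 of 15 pairs of arrays over 0.1. The highest values were 0.26 and 0.21, for replicate 2 of WT_D18 and WT_D0 and of pif3_D0 and WT_D0. WT_R1 with WT_D18 was not among the pairs checked, and whether same-numbered arrays shared a batch was not tested. With the replicate block 4 members were called at 1 h, 12 at 18 h, 9 in the difference between times, 0 in longer darkness, 2 in pif3 and 0 in the change of pif3 between D1 and D0. Under it UGT72B3 at 1 h (adjusted p = 0.052) and UGT76C1 at 18 h (adjusted p = 0.054) were not called, and UGT88A1 was called at 1 h (adjusted p = 0.021) and in pif3 (adjusted p = 0.029).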
